A study of Bos taurus with 21 samples.

Results

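The transcripts described here are 12 endometrial RNAs of cattle whose level varied more between heifers on day 13 than on day 16. They did so in cyclic and in pregnant animals alike, with group means that differed by less than set limits. They are 12 of 28054 Ensembl bovine transcript identifiers in the deposited count tables, and 12 of the 13646 with a mean of at least 5 CPM, counts scaled to a library total of 1000000. They were chosen by their spread between heifers and by their group means. Members had a standard deviation (SD) of log2(CPM + 1) of at least 0.6 within cyclic day 13 and within pregnant day 13 heifers, and of at most 0.4 within each day 16 group. Their mean log2(CPM + 1) differed by under 0.7 between days in cyclic and in pregnant heifers, and by under 1 between the day 16 groups. These values chose the members, so the spread within groups and the differences of means are given as a description and were not tested.

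Endometrium was taken from 20 cross-bred beef heifers, mostly Charolais and Limousin crosses, 5 in each of 4 groups: cyclic and pregnant heifers slaughtered on day 13, and cyclic and pregnant heifers slaughtered on day 16. All 4 groups had their oestrous cycles synchronised with a vaginal progesterone device and a prostaglandin F2α analogue. Cyclic heifers were not inseminated, and pregnant heifers were inseminated and kept only where a conceptus of the right stage was flushed from the uterus. The tissue was mainly intercaruncular endometrium of the horn beside the ovary with the corpus luteum, a mixture of epithelium, glands, stroma, vessels and leukocytes, so fewer cells of a type and less RNA per cell cannot be told apart.

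The endometrium of the luteal phase is under progesterone, which changes what its glands secrete into the uterine lumen and so what the free conceptus lives on. Around day 13 the bovine conceptus starts to elongate. Around day 16 it secretes interferon tau, the signal that keeps the corpus luteum from regressing, and a cyclic heifer has no such signal. No gene name stands beside an identifier in the files, and the RefSeq gene table used here holds 0 Ensembl bovine transcript identifiers, so none of the 28054 could be matched. For that reason no function, position or sequence is given for the members and the tissue was not checked against cell type markers.

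Library totals ranged from 1256870 to 3764342 counts. Heifer 12 (pregnant, day 16) was sequenced as 2 libraries, and only library 1 was used. Library 2 was closest to the library of heifer 19, with a Pearson correlation of log2(CPM + 1) of 0.984 across the 13646 transcripts, which are not independent replicates. Library 1 of its own heifer ranked 5 at 0.962. Over the 12 members library 2 differed from library 1 by a median of 0.30 log2 units, where pairs of the 5 pregnant day 16 heifers differed by 0.31. Whether the label of library 2 is right was not tested. With library 2 in place of library 1, 16 transcripts met the rule, 11 of them among the 12. With both libraries summed, 15 did, again with 11 of the 12.

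The rule was met by 12 transcripts, and by 11 with the days exchanged, and both counts moved with the scaling, the libraries of heifer 12 and the heifers used. Of the 13646 transcripts, 380 (2.78%) were variable in both day 13 groups and 9379 (68.7%) were tight in both day 16 groups. Both conditions held for 28, of which 16 dropped out on the differences of means. With the days exchanged, 303 transcripts were variable in both day 16 groups, 8280 were tight in both day 13 groups, 14 met both conditions and 11 met the whole rule. The count under the exchanged rule fell to 7 with TMM (trimmed mean of M values) scaling and to 6 with DESeq2 size factors, where the rule itself gave 13 and 14. With the libraries of heifer 12 summed the counts were 15 under the rule and 6 under the exchanged rule. With library 2 in place of library 1 they were 16 and 8. Without pregnant day 13 heifer 14 they were 5 and 12. Over all 13646 transcripts the median SD was 0.269 in cyclic day 13, 0.313 in pregnant day 13, 0.25 in cyclic day 16 and 0.269 in pregnant day 16 heifers. The members' medians were 0.66, 0.71, 0.27 and 0.33 in the same order, so at day 16 they were not tighter than the median transcript. The 13646 transcripts were not matched to the members on abundance, and counting error adds more to the SD at low levels.

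Members near the limits differed little from transcripts outside them. The 3 members closest to the day 13 limit had a lower day 13 SD of 0.604, 0.619 and 0.621, and the 3 nearest transcripts that missed it had 0.593, 0.591 and 0.59. On the day 16 limit the nearest members had a higher day 16 SD of 0.384, 0.383 and 0.381, and the nearest transcripts outside had 0.405, 0.428 and 0.431. Within 0.05 of the day 13 limit there were 8 members and 15 transcripts that met every other condition.

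**Figure D1:**
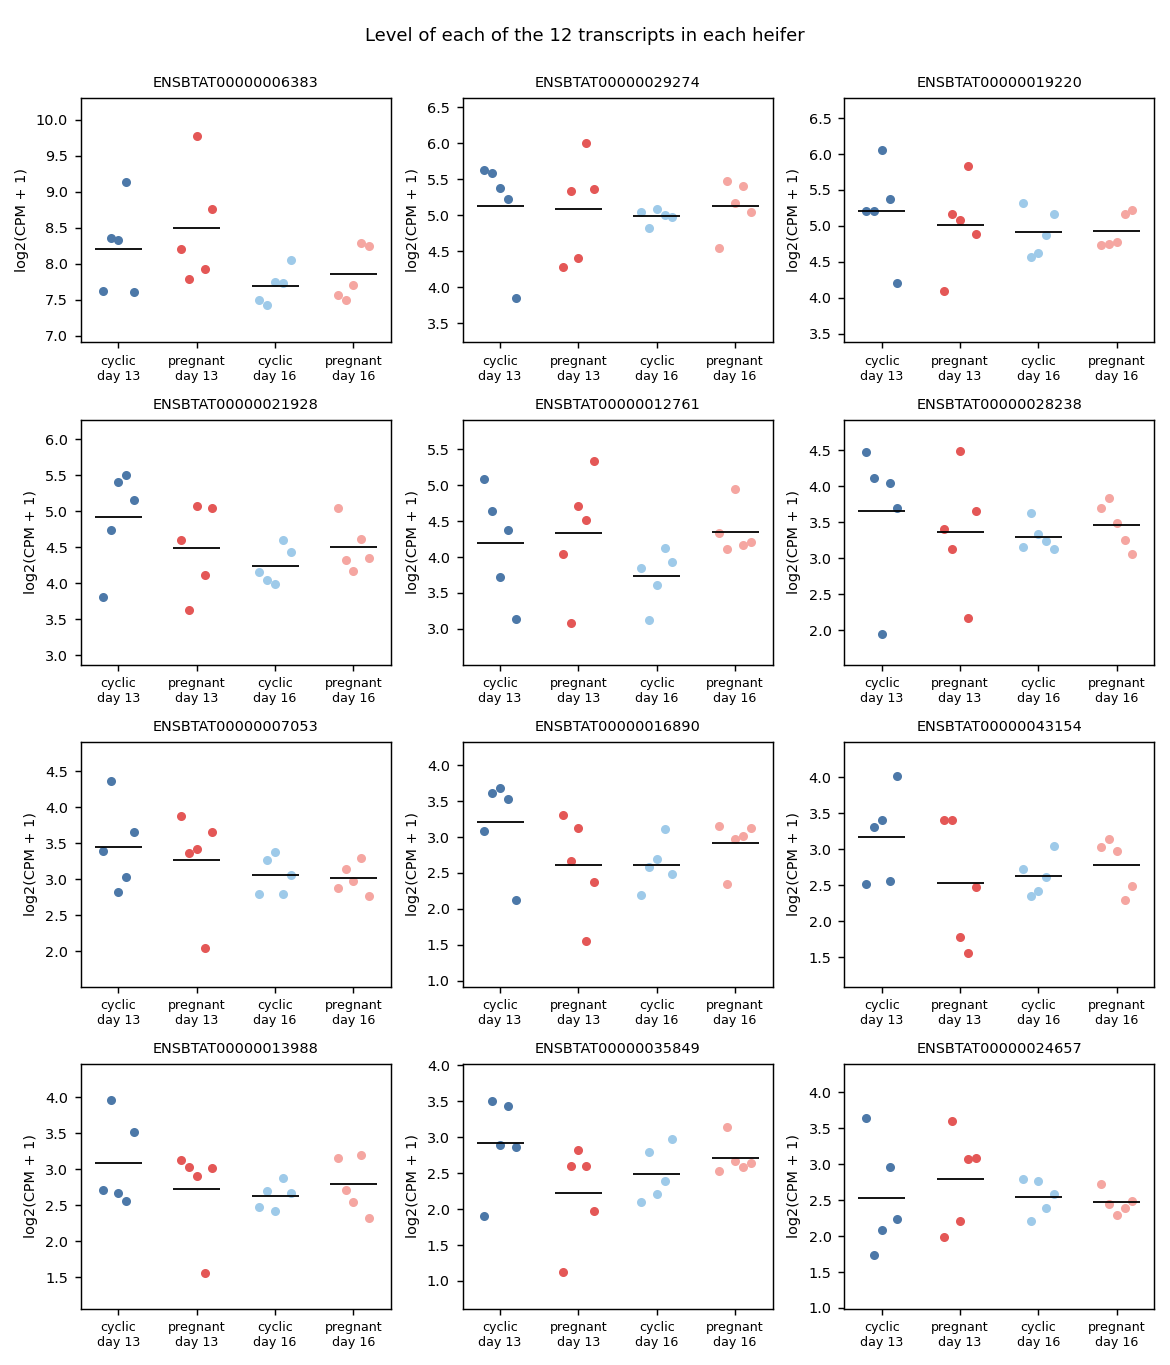
Each panel shows 1 of the 12 transcripts, with log2(CPM + 1) on the vertical axis over the same span of 3.4 units, 1 point per heifer and a line at the mean of the 5 heifers of each group. Day 13 points spread more widely than day 16 points in every panel, as the selection rule required.

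ENSBTAT00000028238 came first of the 12 by the lower of its day 13 SDs. In cyclic day 13 heifers it stood at 2.86 CPM in heifer 10, 11.9 in heifer 18, 15.5 in heifer 13, 16.4 in heifer 8 and 21.3 in heifer 5. In pregnant day 13 heifers it stood at 3.49 CPM in heifer 14, 7.70 in heifer 9, 9.54 in heifer 2, 11.6 in heifer 20 and 21.4 in heifer 11. Heifers 10 and 14 were low in their groups and lay below every day 16 heifer, whereas heifers 5, 8, 13 and 11 lay above every one of them. The cyclic day 16 heifers 17, 3, 16, 15 and 7 had 7.67, 7.87, 8.48, 9.06 and 11.4 CPM. The pregnant day 16 heifers 19, 12, 6, 1 and 4 had 7.37, 8.52, 10.2, 11.9 and 13.4 CPM. The SD of log2(CPM + 1) was 1.0 and 0.84 in cyclic and pregnant day 13 heifers, against 0.21 and 0.32 in cyclic and pregnant day 16 heifers.

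ENSBTAT00000012761 came second by the lower of its day 13 SDs, which were 0.77 in cyclic and 0.84 in pregnant heifers. Cyclic day 13 heifers 18, 10, 13, 8 and 5 had 7.82, 12.1, 19.7, 23.9 and 33.1 CPM. Pregnant day 13 heifers 9, 2, 14, 11 and 20 had 7.44, 15.5, 21.7, 25.1 and 39.1 CPM. Heifers 5 and 20 were thus the high animals of their groups, and they were not the high ones of ENSBTAT00000028238 in both cases, since heifer 11 led the pregnant group there. Cyclic day 16 heifers 7, 15, 3, 17 and 16 had 7.74, 11.2, 13.4, 14.2 and 16.5 CPM. Pregnant day 16 heifers 4, 12, 19, 1 and 6 had 16.3, 17, 17.5, 19.1 and 29.7 CPM. All 10 day 16 heifers lay inside the span of the 10 day 13 heifers.

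ENSBTAT00000006383 was by far the most abundant member, with a mean of 295 CPM and 238 to 2170 counts per heifer. Cyclic day 13 heifers 18, 5, 10, 8 and 13 had 193, 196, 322, 328 and 559 CPM. Pregnant day 13 heifers 9, 14, 2, 20 and 11 had 220.0, 241, 292, 432 and 878 CPM. Its day 13 spread lay upwards: 5 of the 10 day 13 heifers exceeded every day 16 heifer and 0 fell below them. Cyclic day 16 heifers 7, 3, 16, 15 and 17 had 171, 179, 212, 215 and 264 CPM. Pregnant day 16 heifers 4, 1, 6, 19 and 12 had 178, 189, 208, 303 and 311 CPM, with heifers 12 and 19 apart from the other 3.

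ENSBTAT00000029274 was second in abundance at a mean of 34.7 CPM. Cyclic day 13 heifer 18 had 13.4 CPM, while heifers 13, 10, 8 and 5 had 36.3, 40.7, 46.8 and 48.5 CPM. Pregnant day 13 heifers 2, 11, 9, 20 and 14 had 18.5, 20.2, 39.3, 40.4 and 63.2 CPM. In cyclic heifers the spread thus came from 1 low animal, and in pregnant heifers from 2 low animals and 1 high one. The cyclic day 16 heifers were nearly level, with 27.3, 30.3, 30.9, 32.1 and 33.0 CPM in heifers 7, 17, 16, 3 and 15. Their SD of 0.10 was below the 0.16 that counting error alone gives at this level. Pregnant day 16 heifers 1, 19, 6, 12 and 4 had 22.3, 31.9, 35.1, 41.2 and 43.4 CPM.

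The other 8 members had mean levels from 5.38 to 33.1 CPM, and 6 of the 12 had a mean under 10 CPM. The lowest count of any member in a heifer was 2. Over the 12 members the highest heifer exceeded the lowest by a median of 3.57-fold in cyclic day 13 and 4.21-fold in pregnant day 13 heifers, with ranges of 2.90 to 7.45 and 2.87 to 6.14. At day 16 these medians were 1.61-fold in cyclic and 1.82-fold in pregnant heifers. Of the 60 values of cyclic day 13 heifers, 29 lay above all 10 day 16 heifers and 8 lay below all of them. Of the 60 values of pregnant day 13 heifers, 17 lay above and 15 below. Within these counts the cyclic day 13 values lay more often above the day 16 range than below it, and the pregnant ones lay on both sides. Wide day 13 and tight day 16 values chose the members, so values outside the day 16 range were favoured by the rule. The 12 members share the same heifers, so the 60 values of a group are not independent. The matching share over all transcripts was not computed, and these counts are a description.

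The spread of the members was set beside that of counting alone. Poisson counting at each heifer's depth would give SDs of 0.05 to 0.34 in cyclic day 13 and 0.05 to 0.39 in pregnant day 13 heifers. The observed SD exceeded that by a median of 3.11 times in cyclic and 2.87 times in pregnant day 13 heifers, and by at least 2.08 and 1.77 times in each member, with the day 13 SDs held at 0.6 or more by the rule. At day 16 the median ratio was 0.932 in cyclic and 1.08 in pregnant heifers, with ranges of 0.532 to 3.96 and 0.393 to 6.0. The highest ratio in both groups was that of ENSBTAT00000006383, the most abundant member, whose day 16 heifers thus differed by more than counting error. The rule also held the day 16 SDs at 0.4 or less, while counting SDs there reached 0.35 in cyclic and 0.4 in pregnant heifers. Low day 16 ratios were thus favoured by the rule. The observed SD was below the counting SD for 7 members in cyclic and 4 members in pregnant day 16 heifers. At this depth, a smaller difference between day 16 heifers was not detectable in those members. The reads carry no stated molecular identifiers and need not be independent molecules, so these limits cover counting error only.

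**Figure D2:**
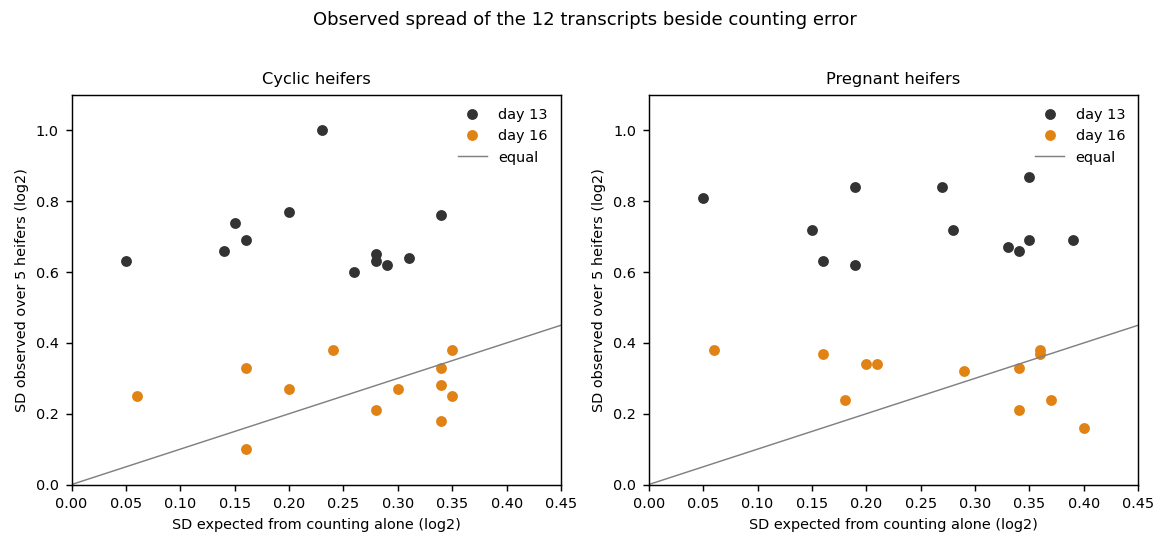
The SD of log2(CPM + 1) over 5 heifers (vertical axis) is plotted against the SD that Poisson counting alone gives (horizontal axis), 1 point per transcript and day, with cyclic heifers on the left and pregnant heifers on the right. Day 13 points lie above the line of equality throughout, by at least 1.77 times, and day 16 points run from 0.393 to 6.0 times it, with 7 cyclic and 4 pregnant points below the line.

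The members did not rise and fall together across the day 13 heifers. After each group's mean was taken off, 35 of the 66 pairs of members had a positive and 31 a negative correlation over the 10 day 13 heifers, with a median absolute Pearson r of 0.30. An absolute r of at least 0.5 was seen in 14 pairs, or 21.2%, against 32.5% of all pairs of the 13646 transcripts. The first 2 principal components held 33.5% and 25.5% of the variance of the members. The sign of r was the same within cyclic and within pregnant heifers in 33 of the 66 pairs. These correlations rest on few heifers and share libraries and depth, and they are a description.

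ENSBTAT00000007053 and ENSBTAT00000013988 were the closest pair and were singled out after their values were seen. Over the day 13 heifers their r was 0.955, with 0.930 within cyclic and 0.977 within pregnant heifers. In heifer 14 they had 3.10 and 1.94 CPM, from 8 and 5 counts, the lowest of all 20 heifers for both. In cyclic heifer 8 they had 19.7 and 14.5 CPM, the highest for both. Without heifer 14 the r was 0.903, and without heifers 14 and 8 it was 0.740. Over the 10 day 16 heifers, where both transcripts were chosen to be tight, r was 0.175. An r as high as this pair's over day 13 heifers was reached by 0.057% of all pairs of the 13646 transcripts. The identifiers did not have identical counts, and how reads shared between transcripts were counted is not given in the sources used here.

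**Figure D3:**
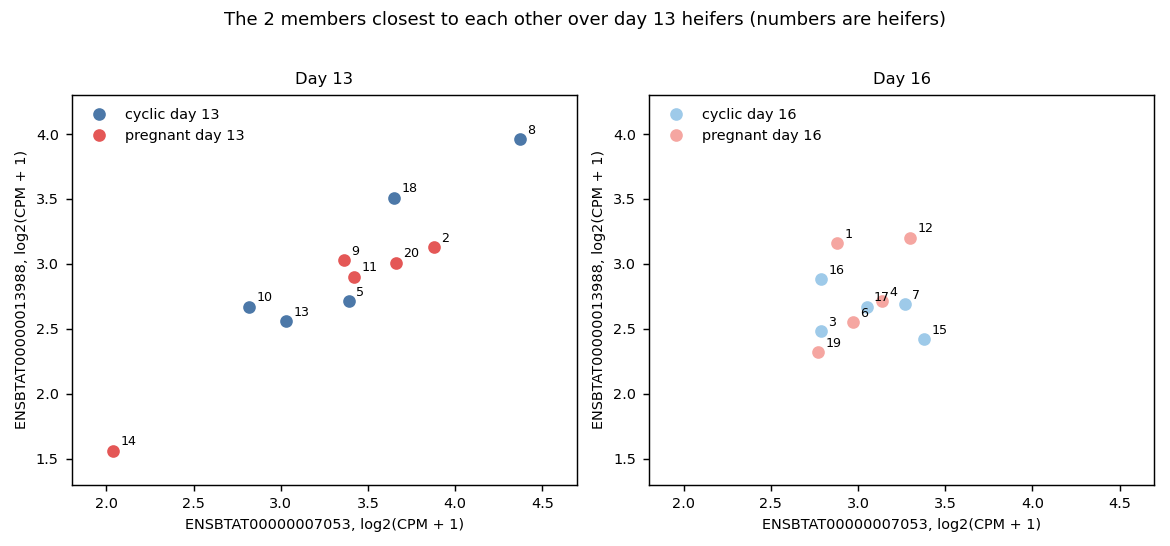
Log2(CPM + 1) of ENSBTAT00000013988 (vertical axis) is plotted against that of ENSBTAT00000007053 (horizontal axis), 1 point per heifer with its number, day 13 on the left and day 16 on the right. Day 13 heifers run from heifer 14 at the lower left to heifer 8 at the upper right (r = 0.955 after group means are taken off), and day 16 heifers show no such line (r = 0.175).

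Further pairs with the same sign in both groups were ENSBTAT00000029274 with ENSBTAT00000019220 (r = 0.789 over day 13 heifers) and ENSBTAT00000006383 with ENSBTAT00000021928 (r = 0.726). In the opposite direction, ENSBTAT00000012761 and ENSBTAT00000043154 had r = -0.712, and ENSBTAT00000019220 and ENSBTAT00000007053 had r = -0.701. These were the 2 next highest and the 2 lowest of the 66 pairs. Over the day 16 heifers the 4 pairs had r of 0.217, 0.12, 0.45 and -0.465.

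The high and low animals differed from member to member. Each day 13 heifer was the highest or the lowest of its group for 1 to 7 of the 12 members. Cyclic heifer 5 and pregnant heifers 2 and 14 were each at an extreme for 7. Pregnant heifer 14 was lowest for 5 members and highest for 2, and cyclic heifer 18 was lowest for 5 and highest for 1. Pregnant heifer 20 was at an extreme for only 1 member. Without heifer 14, 5 transcripts met the rule, all of them among the 12. Of the 7 members lost, 6 no longer reached an SD of 0.6 in pregnant day 13 heifers, where their SD was 0.09 to 0.59, and ENSBTAT00000006383 was lost on the difference of means between days. The SD of the pair ENSBTAT00000007053 and ENSBTAT00000013988 in pregnant day 13 heifers was 0.24 and 0.09 without heifer 14, against 0.72 and 0.66 with it. ENSBTAT00000012761 kept an SD of 0.96 in that group without heifer 14.

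**Figure D4:**
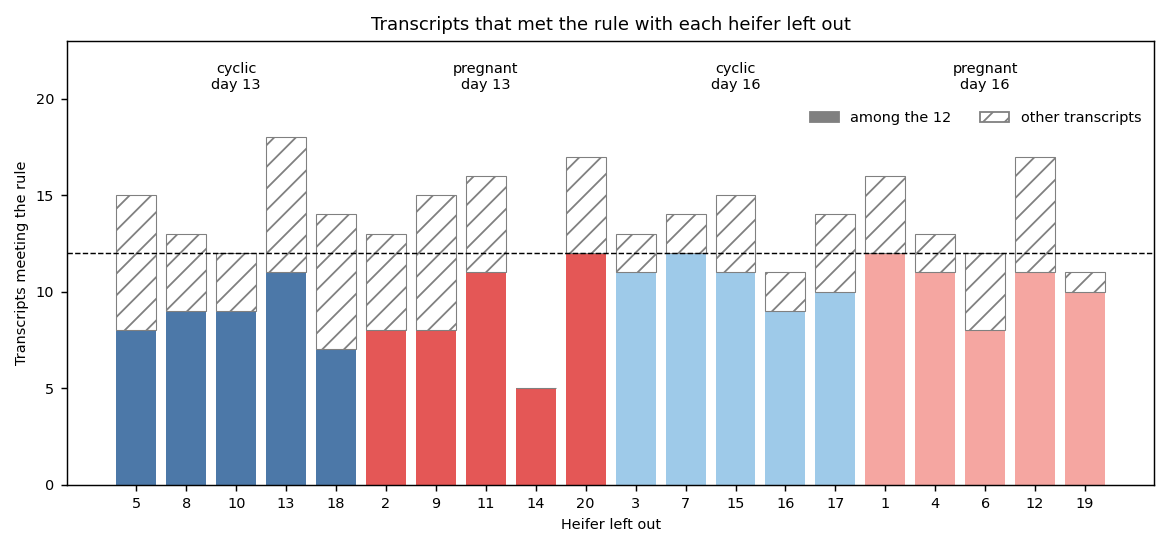
Bars show how many transcripts met the selection rule when the heifer named on the horizontal axis was left out, with the part among the 12 in colour and other transcripts hatched. The dashed line marks 12, and the count ranged from 5 without pregnant day 13 heifer 14 to 18 without cyclic day 13 heifer 13.

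File names carry a code that takes 4 values, called runs A to D here, whose meaning is not stated. Cyclic day 13 heifers fell 1, 3 and 1 into runs A, B and C, and cyclic day 16 heifers fell 1, 3 and 1 into runs A, C and D. Pregnant day 13 heifers fell 2, 2 and 1 and pregnant day 16 heifers 2, 1 and 2 into runs A, B and C. After group means were taken off, the residual SD over the 12 members had a median of 0.70 at day 13 and 0.30 at day 16. After group and run means were taken off it was 0.75 and 0.28, and it was higher at day 13 for 12 of 12 members. Within run B the 3 cyclic day 13 heifers had a median SD of 0.74, and within run C the 3 cyclic day 16 heifers had 0.22. The rule chose members for a wider spread at day 13, so this direction was largely set in advance and is a description. Run B and run C differ in day here, so run and day cannot be told apart in that comparison. Whether run contributes to the spread was not tested.

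Pregnant and cyclic heifers at day 13 were compared next, a contrast that the rule did not bound directly, although members were chosen for a wide spread within both groups. In it 0 of the 12 members passed edgeR's quasi-likelihood test at an adjusted p under 0.05. The background was 0% of 14826 transcripts tested. DESeq2 and limma voom called 0 of the 12 as well, and 3 and 0 of all transcripts. The smallest adjusted p among members was 0.726. An unadjusted p under 0.05 was reached by 1 member, ENSBTAT00000035849, which is named for that reason, and by 6.55% of all transcripts. It had 2.76 to 10.3 CPM in cyclic and 1.19 to 6.07 CPM in pregnant day 13 heifers, groups that overlapped, and its fitted log2 fold change, pregnant over cyclic, was -0.72 (SE 0.34, unadjusted p = 0.0473, edgeR adjusted p = 0.726). Over the 12 members the fitted log2 fold changes ran from -0.72 to 0.38 with a median of -0.25, against a median of 0.01 over all transcripts. The median SE of a member's fold change was 0.34, against 0.20 over all transcripts, so the test could miss larger differences here than in a usual transcript. The fit used 1 estimate of spread per transcript over all 4 groups. The members' median SDs were 0.66 and 0.71 in the day 13 groups and 0.27 and 0.33 in the day 16 groups. For members the day 13 SEs and p-values are thus likely too small.

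For the contrasts that the rule bounded, counts are given with no reading. The spread that the fit shares over all groups applies here too, and for members it is likely too wide between the day 16 groups. Between pregnant and cyclic heifers at day 16, 0 of the 12 members were called where the background was 0.958%. Between days, 0 were called in cyclic heifers, where the background was 1.73%, and 0 in pregnant heifers, where it was 3.95%. In cyclic heifers the fitted log2 fold changes of the members, day 16 over day 13, ran from -0.81 to -0.16. Their median was -0.61, against 0.004 over all transcripts, whereas the differences of mean log2(CPM + 1) ran from -0.68 to 0.02. In pregnant heifers the fitted values ran from -0.77 to 0.43, with a median of -0.06, against 0.004 over all transcripts. The direct test of the difference between the pregnancy effects at day 16 and day 13 called 0 of the 12, where the background was 0.479%. DESeq2 and limma voom also called 0 of the 12 in these 4 contrasts. In edgeR an unadjusted p under 0.05 was reached by 0 members in the first of these contrasts, and by 6.76% of all transcripts. Between days in cyclic heifers it was reached by ENSBTAT00000021928 and ENSBTAT00000016890, and by 15.1% of all transcripts. Between days in pregnant heifers it was reached by ENSBTAT00000006383, and by 16.9% of all transcripts. For the difference of the pregnancy effects it was reached by ENSBTAT00000016890, and by 11.1% of all transcripts. These contrasts share groups and are not independent of each other. Without cyclic day 13 heifer 5, ENSBTAT00000021928 was called between days in cyclic heifers, at a log2 difference of -1.01 (SE 0.25, edgeR adjusted p = 0.0293), against -0.81 (SE 0.28, edgeR adjusted p = 0.155) with that heifer. This transcript no longer met the selection rule without heifer 5, so it was not a member in the setting that called it.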

How the data were processed

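Single-read RNA libraries were deposited as raw read counts per Ensembl bovine transcript, 1 file per library, per the file contents. The submitters' processing notes name CASAVA. For the aligner, counter, annotation, genome build and use of strand, nothing is given in the sources used here, so counts of overlapping or paralogous transcripts are uncertain. Groups came from the sample labels, and heifer numbers are not shared between groups.

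CPM was the count scaled to a file total of 1000000, and levels are log2(CPM + 1). The rule, the exchanged rule and correlations were computed with numpy 2.4.6 and pandas 2.3.3, and counting SDs with scipy 1.17.1. The edgeR 4.0.16 quasi-likelihood model (R 4.3.3, robust, TMM) took all 20 heifers and 4 group means after filterByExpr (minimum count 10, total 15), with Benjamini-Hochberg adjustment over 14826 transcripts. DESeq2 1.42.0 and limma 3.58.1 voom were alternatives. The code of the rule and of the edgeR fit was run on simulated data. For the rule the simulated spreads lay well away from its limits, so that run says nothing about members near them.

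Members and lists were chosen with earlier results of these data known. Named transcripts are the 2 with the highest lower day 13 SD and the 2 most abundant; others are named where singled out. The cell type marker and pathway lists needed gene symbols and were not tested.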

Additional observations from a re-analysis of the deposited data

Results flagged for a closer look

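In 48 sets of 5 heifers, 12 members in each of 4 groups, 6 values of log2(CPM + 1) stood apart from the rest of their group by a gap of more than 0.71 of the group's range. Chance flags about 1 in 20 sets of independent, normally distributed values. These sets share heifers and include low counts, and the members were chosen for wide spread at day 13 and tight values at day 16. That rate need not apply to them. Heifer 14 gave both flagged pregnant day 13 values. It had 3.10 CPM of ENSBTAT00000007053, against 9.30 to 13.7 CPM in the other 4, and 1.94 CPM of ENSBTAT00000013988, against 6.47 to 7.75 CPM. Cyclic day 13 heifer 18 had 13.4 CPM of ENSBTAT00000029274, against 36.3 to 48.5 CPM.

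The other 3 values were in pregnant day 16 heifers. Heifer 6 had 29.7 CPM of ENSBTAT00000012761, against 16.3 to 19.1 CPM in the other 4. Heifer 4 had 4.08 CPM of ENSBTAT00000016890, against 6.82 to 7.96 CPM, and 7.79 CPM of ENSBTAT00000035849, against 4.77 to 5.36 CPM. For these 3 transcripts, in the order named, the SD in pregnant day 16 heifers was 1.58, 0.963 and 0.66 times the counting SD. Both sets that flagged heifer 4 thus spread no more than counting alone gives.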

How the results depend on the processing

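No paired analysis was possible because the labels give each heifer its own number and no number is shared between groups. The number of transcripts meeting the rule was 12, and with 1 heifer left out it ranged from 5 to 18. No member met the rule with each of the 20 heifers left out in turn, and ENSBTAT00000028238 met it in 18 of 20. With a minimum mean of 10 CPM there were 6 transcripts, and with 1 CPM there were 34. With SD limits of 0.55 and 0.45, chosen after the data were seen, there were 42, and with 0.65 and 0.35 there were 2. The exchanged rule gave 11 transcripts and 7 to 15 with 1 heifer left out. It gave 4 and 30 at minimum means of 10 and 1 CPM, 39 and 0 at the wider and narrower SD limits, 7 with TMM scaling, 6 with DESeq2 size factors and 6 with the libraries of heifer 12 summed. Apart from the limits themselves, the cause of these shifts was not tested. With a pseudocount of 0.5, 8 of the 12 members met the rule, and with 2, 5 did.

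For the 12 members held fixed, the median SD in pregnant day 13 heifers was 0.71, and 0.62 with a pseudocount of 2. The share of variance on the first component was 33.5%, and 32.6% to 38.5% with 1 heifer left out. Across 28 other settings of the fit, a member was called in 1, where the count between days in cyclic heifers was 0 to 1 with 1 heifer left out. The smallest adjusted p of a member between pregnant and cyclic heifers at day 13 ranged from 0.421 to 1 over these settings. Between days in cyclic heifers it ranged from 0.0293 to 0.338.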

Other observations

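Library 2 labelled heifer 12, which the rule left out, held 9 of the 12 members inside the range of the 10 day 16 heifers. It lay below that range for ENSBTAT00000019220 (log2(CPM + 1) of 4.46, lowest day 16 heifer 4.57), ENSBTAT00000007053 (2.67 against 2.77) and ENSBTAT00000043154 (1.81 against 2.29). Over the members it differed from heifer 19 by a median of 0.20 log2 units and from library 1 of heifer 12 by 0.30. It was closest to heifer 19 over all transcripts, and which animal it came from was not tested, so these values are not counted as those of a further day 16 heifer.

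Each member had between 2 and 72 transcripts, of 13646, that followed or opposed it with an absolute r of at least 0.9 over the 10 day 13 heifers. The median was 18, against 29 for all transcripts, and 2 members exceeded 29. ENSBTAT00000024657 had the most, 23 positive and 49 negative. For ENSBTAT00000019220, singled out after its values were seen, the 16 transcripts so found had a median r of 0.75 in the same direction over the 10 day 16 heifers, which were not used to find them. For the other 11 members this median was 0.00 to 0.37. Of the 16 transcripts found for ENSBTAT00000019220, 10 reached an absolute r of at least 0.5 with it over the day 16 heifers. The 16 were all chosen for following or opposing the same transcript, so they are not independent of each other. The matching median over all transcripts was not computed.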
